A study of Mus musculus with 6 samples.

Results

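The genes described here encode the enzymes that make and recycle glutathione, break down peroxides and superoxide, and conjugate reactive compounds in mouse melanocytes. They were chosen by symbol: the glutathione transferases (Gsta, Gstk, Gstm, Gsto, Gstp, Gstt and Gstz), the microsomal glutathione transferases Mgst1 to Mgst3, the glutathione peroxidases (Gpx), the peroxiredoxins (Prdx), the superoxide dismutases Sod1 to Sod3, the thioredoxin reductases Txnrd1 to Txnrd3, and Cat, Nqo1, Hmox1, Gclc, Gclm, Gsr, Srxn1 and Txn1. Of 22180 genes measured by a probe set with 1 gene symbol, 47 met this rule, each with 1 probe set. A further 5 symbols (Gsta1, Gsta2, Gstm5, Gstz1 and Prdx1) were listed only in probe sets shared with other genes and are not analysed here. No probe set was listed for the protein-coding genes Prdx5, Prdx6 and Prdx6b, or for several pseudogenes that match the rule.

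The data are 6 Affymetrix arrays of immortal melanocyte lines, 3 of a line that is Sox10LacZ/+ and Ink4a-Arf null (called heterozygous here) and 3 of melan-Ink4a-Arf-1, which is wild type for Sox10 and carries Cdkn2a tm1RDp on both alleles. By their labels both lines lack Ink4a-Arf, both had a background backcrossed to C57BL/6J, and both were cultured in medium with 10% serum, 200 nM of the phorbol ester 12-O-tetradecanoylphorbol 13-acetate and 200 pM cholera toxin. The donor mice of the heterozygous line were 3 days old. With 1 cell line per genotype, effects of the line and of the genotype cannot be told apart, and the labels do not say whether replicates are separate cultures, so the p-values reflect array-to-array spread alone, which may be technical.

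Glutathione is a tripeptide made in a reaction limited by glutamate-cysteine ligase, and it supplies electrons to glutathione peroxidases and a conjugating group to glutathione transferases. Thioredoxin and its reductases supply electrons to the peroxiredoxins in a parallel route, and superoxide dismutases make the hydrogen peroxide that catalase, peroxidases and peroxiredoxins remove. Many of these genes are targets of NRF2, a transcription factor that binds the antioxidant response element and is held back by KEAP1. In pigment cells melanin synthesis itself generates quinones and hydrogen peroxide.

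The short sequences below show where the core of the antioxidant response element, written TGACNNNGC, occurred in the promoters of these genes. RefSeq promoter windows of build GRCm38.p6, which run from 250 bases before to 50 bases after a transcription start, were found for 40 of the 47 genes, and 7 of these 40 genes (17.5%) held the core on either strand. Of the 16918 tested genes with a window in the same table, 14.9% held it. Each stretch is given 5′ to 3′ on the strand of its gene, with the 9 bases of the core in capitals. In Gsta3 and Gstm7 the core read on the strand of the gene, and in the other 5 it read on the opposite strand, so that the capitals show its reverse complement. The Gclm stretch lay at chr3:122245413-122245441 (gene on the plus strand), its core beginning 134 bases before the start, the Txnrd1 stretch at chr10:82859104-82859132 (plus strand), 92 bases before, the Mgst1 stretch at chr6:138140461-138140489 (plus strand), 56 bases before, the Sod1 stretch at chr16:90220696-90220724 (plus strand), 56 bases before, the Gstm7 stretch at chr3:107931725-107931753 (minus strand), 129 bases before, the Gsta3 stretch at chr1:21240454-21240482 (plus strand), 121 bases before, and the Srxn1 stretch at chr2:152105542-152105570 (plus strand), 28 bases after the start.
Gclm: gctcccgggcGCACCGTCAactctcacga
Txnrd1: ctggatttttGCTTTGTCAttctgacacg
Mgst1: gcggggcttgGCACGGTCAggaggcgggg
Sod1: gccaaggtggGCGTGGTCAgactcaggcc
Gstm7: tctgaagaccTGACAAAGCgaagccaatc
Gsta3: aactcaggcaTGACATTGCatttttcttc
Srxn1: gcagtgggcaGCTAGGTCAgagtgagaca
Of these 7 genes, Gclm was lower and Mgst1 higher in the heterozygous line, and the other 5 did not pass the test described next. Among the 11 passing genes with a window, 2 held the core. Nqo1 had 1 window and no match, which says only that these letters are not in that window. Letters of SOX sites were found as ACAAAG in 10 of the 40 genes (25%, against 19.2% of tested genes) and as ACAATG in 1, Gstm7 (2.5%, against 12.3%), on either strand. Those matches include 1 that overlaps the core in Gstm7 and 1 that overlaps it in Txnrd1. A match is a description of the letters and not a binding site.

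The deposited values are log2 signals normalised between arrays, and lines were compared with limma across all 22180 genes. The threshold for passing was a limma p below 0.05 after Benjamini-Hochberg adjustment, and differences are heterozygous minus wild type on the log2 scale. Sox10 itself read 9.70, 9.70 and 9.79 in the heterozygous arrays and 9.98, 9.80 and 9.95 in the wild-type arrays. The difference of −0.18 did not pass (limma adjusted p 0.213). The sources used here do not say which part of the transcript the probes read, so this value does not check the LacZ allele. Cdkn2a, the Ink4a-Arf gene, read 7.16, 7.03 and 7.01 in heterozygous and 7.15, 7.04 and 7.29 in wild-type arrays, above 5.20, the 40th percentile over probe sets. For the same reason that value does not check its deletion. Wild-type replicate 2 stood apart from its line: 261 genes lay 2-fold or more away from the average of its line's remaining arrays, against at most 54 for any other array. No member (0 of 47) did so. The lines also differed in sex-linked transcripts, with Xist at 11.02 to 11.10 in heterozygous and 4.74 to 4.87 in wild-type arrays, so genotype cannot be told apart from sex either. None of 9 melanocyte markers lay below that percentile in all arrays, with 1 higher and 4 lower in heterozygous arrays, and their summed level was 15.001 to 15.026 in heterozygous and 15.08 to 15.29 in wild-type arrays. Of 8 fibroblast markers 4 were higher in the heterozygous line (Dcn, Pdgfrb, Fbln1 and Col1a2), with a summed level of 12.36 to 12.42 there and 9.27 to 9.35 in wild type, and 1 of the 8, Lum, lay below the 40th percentile in every array. Pdgfra did not pass, with means of 5.21 in heterozygous and 5.06 in wild-type arrays. Neither did Col1a1, which was lower without overlap (−0.20), nor Col3a1 (0.10). Of 4 Schwann cell markers S100b (−2.70) and Pmp22 (−0.42) were lower. The heterozygous mean of S100b was 5.15, below the 40th percentile. The summed level of the 4 was 10.56 to 10.62 in heterozygous and 10.99 to 11.24 in wild-type arrays. Of 6 leukocyte markers only Cd68 (1.32) passed, with a summed level of 8.97 to 9.10 in heterozygous and 8.36 to 8.55 in wild-type arrays. Estimates were positive for 3 of the 6 and negative for 3, among them Lyz2 (−0.42) and Cd3e (−0.35). Ptprc, Itgam and Cd3e had means below the 40th percentile in both lines. Of 5 endothelial markers only Vwf (0.38) passed, with a summed level of 7.72 to 7.82 in heterozygous and 7.48 to 7.64 in wild-type arrays. Kdr and Tek had means below the 40th percentile in both lines. None of 5 keratinocyte markers passed (0 of 5 by limma, 1 at an unadjusted p below 0.05). Of the markers that passed, Mitf, Col1a2 and Vwf lie on chromosome 6, which was higher as a whole, as described below. The part of the markers in the results was not tested.

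Antioxidant genes moved in both directions. Of the 47, 7 were higher in the heterozygous line (Txnrd3, Sod3, Gsto1, Gstm2, Mgst3, Mgst1 and Prdx4), 6 were lower (Nqo1, Gstt3, Gstm4, Hmox1, Gpx1 and Gclm) and 34 did not pass. That is 27.7%, where 13.4% of all genes passed (7.46% higher and 5.92% lower). All 13 lay among the 35 members whose mean signal reached the 40th percentile, which makes 37.1%, against 18.7% of all 14668 genes that bright. For 24 members the lines had no overlapping arrays (51.1%), against 31.6% of all genes. The median difference over the members was −0.04 and over all genes 0.001. At least 2-fold and passing were 4 members (Nqo1, Gstt3, Gstm4 and Txnrd3), where 3.53% of all genes were. Without wild-type replicate 2, 9 members were higher and 10 lower, and without heterozygous replicate 2 only 3 were higher and 4 lower. All genes moved in the same way, with 2308 higher and 1914 lower without wild-type replicate 2, and 1780 that passed without heterozygous replicate 2, against 2967 with all arrays.

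**Figure D1:**
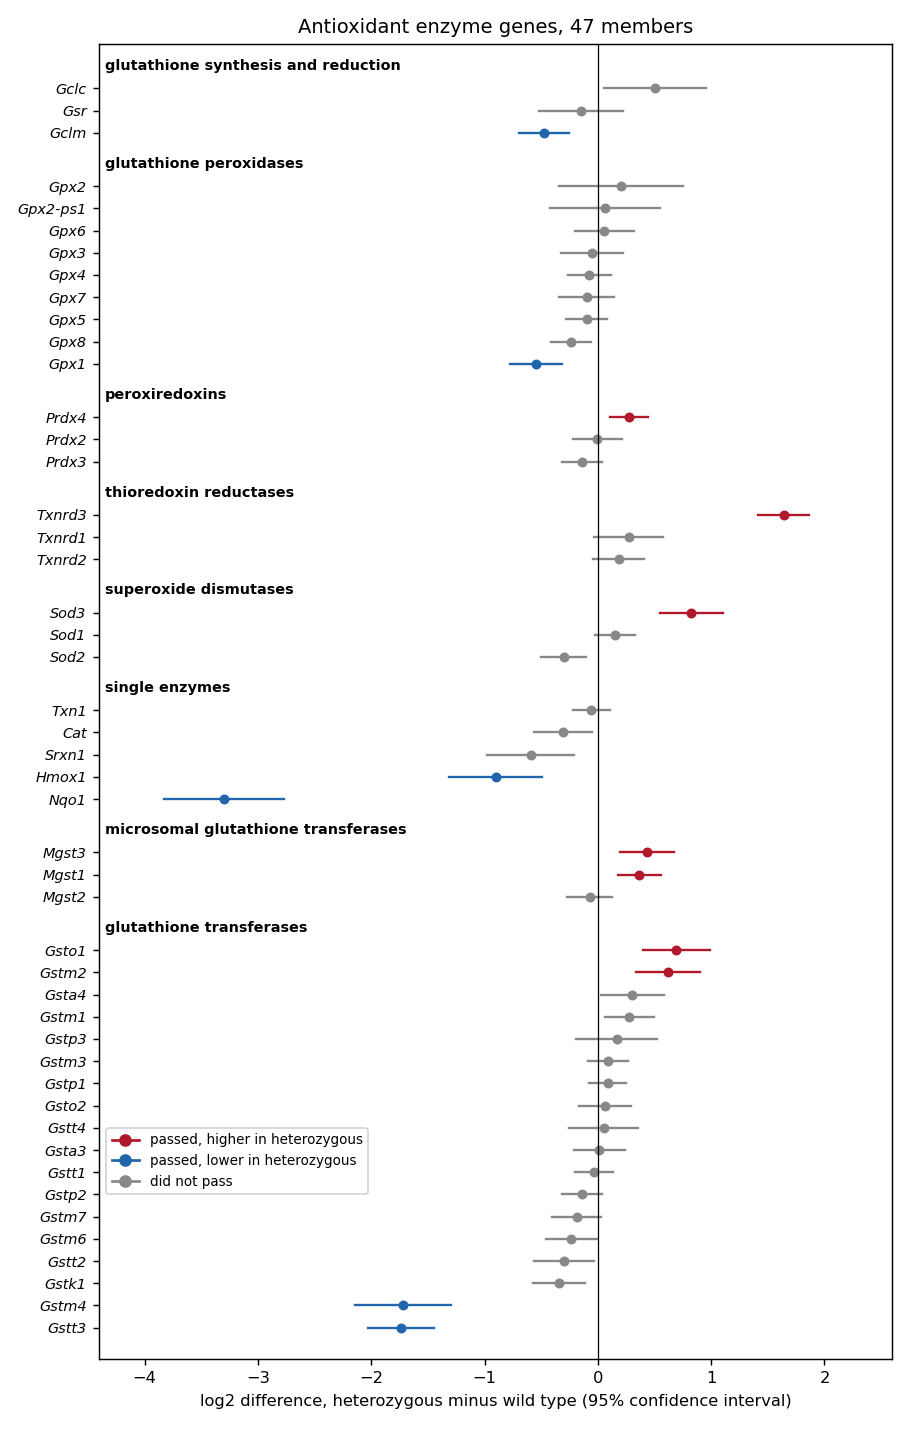
Log2 difference, heterozygous minus wild type, of the 47 antioxidant genes by family. Points are limma estimates from 3 arrays per line and bars their 95% confidence intervals; red genes passed and were higher in the heterozygous line (7), blue genes passed and were lower (6), and grey genes did not pass (34). Nqo1 lies farthest to the left at −3.30 and Txnrd3 farthest to the right at 1.64.

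The largest difference among the members was that of Nqo1, which encodes a quinone reductase that turns quinones into hydroquinones without a semiquinone step (Entrez 18104, chromosome 8, 107388225 to 107403205). Nqo1 read 4.59, 4.89 and 5.23 in the heterozygous arrays and 8.14, 8.66 and 7.81 in the wild-type arrays. Every heterozygous array lay more than 2 log2 units below every wild-type array. The difference was −3.30 (SE 0.23, 95% confidence interval −3.83 to −2.77, limma adjusted p 4.67e-05), or 10.1% of the wild-type signal. With a heterozygous mean of 4.90, below the 40th percentile, the fall is measured close to array background. Without wild-type replicate 2, the highest wild-type array, the difference was −3.07.

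Hmox1, the gene of the inducible heme oxygenase that degrades heme (Entrez 15368, chromosome 8, 75093618 to 75100593), read 7.58, 7.71 and 7.79 in heterozygous and 8.50, 9.02 and 8.26 in wild-type arrays. The lines did not overlap, and Hmox1 fell by 0.90 (SE 0.18, limma adjusted p 0.0131). The call was lost without heterozygous replicate 1 or 2 (adjusted p 0.0599 and 0.0517, within 0.00302 to 0.0599 over all alternatives). Srxn1 encodes sulfiredoxin, which repairs overoxidised peroxiredoxins. Its signal was 9.47, 9.50 and 9.50 in heterozygous arrays and 9.93, 10.50 and 9.81 in wild-type arrays, without overlap. The difference of −0.59 (SE 0.17) did not pass (limma adjusted p 0.0553). It passed in 6 of 15 alternatives, among them without wild-type replicate 2, the highest array, at −0.38 (adjusted p 0.0104), and without wild-type replicate 3 (0.0374, within 0.0104 to 0.157 over all alternatives).

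Cat, the gene of catalase, which splits hydrogen peroxide in peroxisomes, read 11.25, 11.30 and 11.27 in heterozygous and 11.51, 11.82 and 11.41 in wild-type arrays. The arrays did not overlap, but the difference of −0.31 (SE 0.11) did not pass (limma adjusted p 0.122), and it was −0.19 without wild-type replicate 2. Txn1, the gene of cytosolic thioredoxin, differed by −0.06 with a 95% confidence interval of −0.22 to 0.11. All 5 of these single enzymes had negative estimates, of which 2 passed.

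Among the 3 genes for making and reducing glutathione, Gclm, the modifier subunit of glutamate-cysteine ligase (Entrez 14630, chromosome 3, 122245487 to 122267215), was lower and Gclc and Gsr did not pass. Gclm is one of the genes with the response element core printed above. Gclm read 10.40, 10.38 and 10.39 in heterozygous and 10.72, 11.05 and 10.83 in wild-type arrays. Its heterozygous arrays lay close together and all below the wild type, and the difference was −0.47 (SE 0.09, limma adjusted p 0.0138). Leaving out any single heterozygous array raised the adjusted p to between 0.0563 and 0.0592 (0.00632 to 0.0592 over all alternatives).

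Gclc encodes the catalytic subunit of the same ligase (Entrez 14629, chromosome 9, 77754535 to 77794489). Its signal was 9.87, 9.85 and 9.91 in heterozygous arrays and 9.15, 9.88 and 9.08 in wild-type arrays. Wild-type replicate 2 reached the heterozygous level, and the other wild-type arrays lay below it. With all arrays the difference was 0.51 (SE 0.19, limma adjusted p 0.148), and without that array 0.76 (adjusted p 0.000315). It passed with array weights too (0.00983, within 0.000315 to 0.348 over all alternatives). The estimates for the subunit genes thus had opposite signs. Gsr, the gene of glutathione reductase, read 9.26, 9.31 and 9.29 in heterozygous and 9.27, 9.84 and 9.19 in wild-type arrays. The Gsr difference was −0.15 (95% confidence interval −0.52 to 0.22), and it changed sign to 0.05 without wild-type replicate 2.

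Wild-type replicate 2 was the highest wild-type array in all 3 of these genes, in 4 of the 5 single enzymes and in 19 of the 47 members (40.4%, against 37.0% of all genes). Above the average of wild-type replicates 1 and 3 it lay by 0.77 for Gclc, 0.68 for Nqo1, 0.64 for Hmox1, 0.63 for Srxn1, 0.61 for Gsr, 0.475 for Txnrd1, 0.36 for Cat and 0.27 for Gclm, whereas the median over the members was 0.02. Further members lay above that average in it as well, by 0.67 for Gpx2, 0.45 for Gstm4 and 0.43 for Gsto1. The same held for Gstt3 (0.33), Gpx1 (0.30) and Gstt2 (0.29). Other members went the other way in that array, among them Gpx2-ps1 by −0.65, Gstm2 by −0.41 and Sod3 by −0.32. Gpx2, Gstt2 and Gpx2-ps1 had means below the 40th percentile in both lines. The part of that array in the results was not tested beyond leaving it out. A pair of genes picked with their values in view was also highest of the wild type in that array. Slc7a11, the cystine importer gene that feeds glutathione synthesis, read 7.11, 7.27 and 7.26 in heterozygous and 6.54, 7.70 and 6.35 in wild-type arrays. Osgin1, a stress-induced gene, read 8.50, 8.53 and 8.55 in heterozygous and 8.97, 9.74 and 8.82 in wild-type arrays. Of the thioredoxin-related and repair genes, Sesn1 and Txnip were lower in that array than in the other wild-type arrays, by −1.17 and −0.86.

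**Figure D2:**
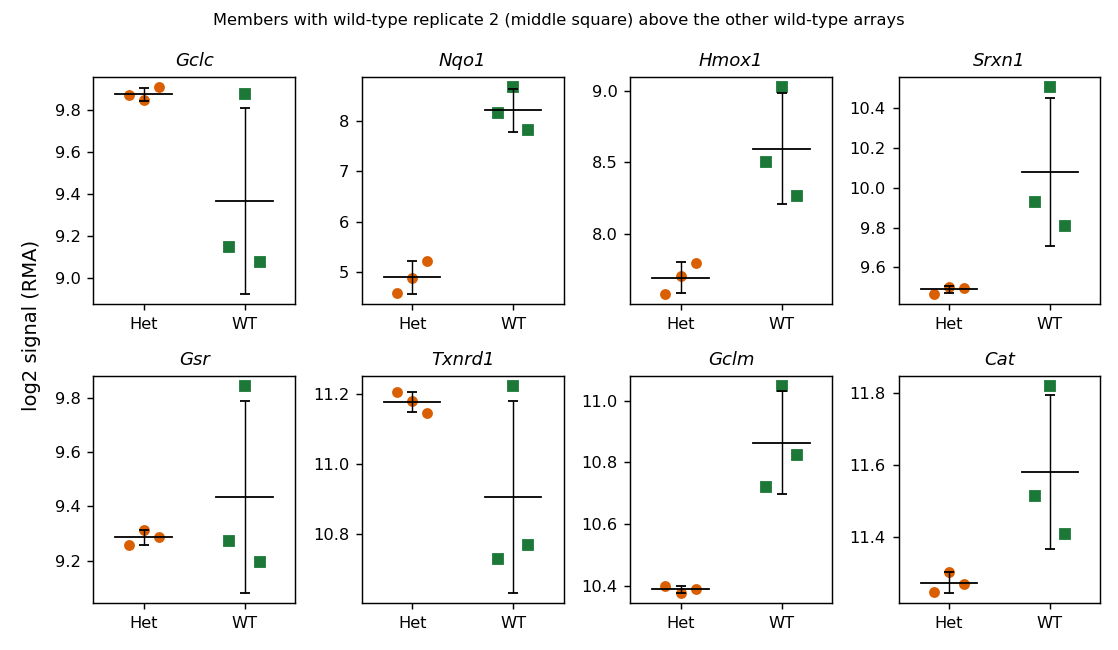
Log2 signal by array for 8 members picked with their values in view, all with wild-type replicate 2 as the highest wild-type array. Gpx2, Gstm4, Gsto1, Gstt3, Gpx1 and Gstt2, where that array lay further above the others than for Gclm, are not shown. Heterozygous arrays are circles on the left and wild-type arrays squares on the right of each panel. Replicates 1 to 3 run from left to right, with the mean and SD of 3 arrays. The middle square, wild-type replicate 2, is the highest square in each panel by that choice, against 19 of all 47 members, and in Gclc and Txnrd1 it lies at the heterozygous level.

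Glutathione peroxidases reduce peroxides at the expense of glutathione. Of 9 measured entries, 1 of them the pseudogene Gpx2-ps1, only Gpx1 passed. Gpx1, the abundant cytosolic selenoenzyme (Entrez 14775, chromosome 9, 108339080 to 108340342), read 9.48, 9.52 and 9.48 in heterozygous and 9.97, 10.24 and 9.91 in wild-type arrays. The lines were apart in every array, with a difference of −0.55 (SE 0.10, limma adjusted p 0.0084), or 68.5% of the wild-type signal. Gpx8, a peroxidase of the endoplasmic reticulum, read 11.41, 11.41 and 11.38 in heterozygous and 11.64, 11.54 and 11.73 in wild-type arrays. The lines did not overlap, and the difference of −0.24 did not pass (limma adjusted p 0.0898), but it did in 3 of 15 alternatives, among them without wild-type replicate 2 (−0.29, adjusted p 0.0274, within 0.0274 to 0.257 over all alternatives). Gpx4, which reduces lipid hydroperoxides in membranes and protects against ferroptosis, differed by −0.08 (95% confidence interval −0.27 to 0.11). The other peroxidase genes, Gpx2, Gpx3, Gpx5, Gpx6 and Gpx7 and the pseudogene, had differences between −0.10 and 0.20, and Gpx2, Gpx2-ps1, Gpx5 and Gpx6 were below the 40th percentile in both lines.

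The thioredoxin side gave the largest rise. Txnrd3, the thioredoxin reductase with a glutaredoxin domain that is known from testis (Entrez 232223, chromosome 6, 89643988 to 89675529), read 8.35, 8.46 and 8.22 in heterozygous and 6.84, 6.71 and 6.57 in wild-type arrays. Every heterozygous array exceeded every wild-type array by more than 1 log2 unit. The difference was 1.64 (SE 0.10, 95% confidence interval 1.41 to 1.86, limma adjusted p 1.82e-05), a 3.11-fold higher signal, and it kept its call in all 15 alternatives tried. Chromosome 6 as a whole was higher in the heterozygous line: among its 710 genes at or above the 40th percentile the median difference was 0.24, with 239 higher and 31 lower, against a median of 0.002 with 1295 higher and 1176 lower among 13958 such genes elsewhere. The part of the chromosome in the Txnrd3 difference was not tested. Txnrd1, the cytosolic reductase, read 11.21, 11.18 and 11.15 in heterozygous and 10.73, 11.22 and 10.77 in wild-type arrays. Wild-type replicate 2 again reached the heterozygous level, and the difference was 0.27 (limma adjusted p 0.255) with that array and 0.43 without it (adjusted p 0.00449). It passed with array weights too (0.0339, within 0.00449 to 0.505 over all alternatives). Txnrd2, the mitochondrial reductase, differed by 0.18 and did not pass.

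Of the peroxiredoxins, thiol peroxidases that use thioredoxin, 3 were measured. Prdx4, the member of the endoplasmic reticulum, lies on the X chromosome (Entrez 53381, 155323918 to 155342272) and read 7.62, 7.55 and 7.58 in heterozygous and 7.36, 7.32 and 7.24 in wild-type arrays. The lines did not overlap and Prdx4 rose by 0.28 (SE 0.07, limma adjusted p 0.0409). The call was lost in 7 of 15 alternatives: without any heterozygous array (adjusted p 0.107 to 0.154), without wild-type replicate 1 or 3 (0.0665 and 0.0939), and in 2 other fits (0.0871 with every probe set tested), within 0.0238 to 0.154 over all alternatives. X-linked genes as a whole had a median difference of −0.005, with 55 higher and 59 lower of 899. Prdx2 in the cytosol differed by −0.01 (95% confidence interval −0.22 to 0.21) and mitochondrial Prdx3 by −0.14 (−0.31 to 0.04).

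Superoxide dismutases are told apart by where they act. Sod3, the secreted enzyme (Entrez 20657, chromosome 5, 52363804 to 52369738), read 7.03, 6.89 and 6.71 in heterozygous and 6.16, 5.84 and 6.16 in wild-type arrays. The lines did not overlap and Sod3 rose by 0.82 (SE 0.12, limma adjusted p 0.00284), a 1.77-fold higher signal. Sod2, the manganese enzyme of mitochondria, read 10.34, 10.26 and 10.36 in heterozygous and 10.51, 10.58 and 10.76 in wild-type arrays. The arrays did not overlap, but the difference of −0.30 did not pass (limma adjusted p 0.0596). It passed when dim genes were left out (0.0402) or the prior followed the mean signal (0.0317), within 0.0317 to 0.201 over all alternatives. Sod1, the copper and zinc enzyme of the cytosol, differed by 0.15 (95% confidence interval −0.03 to 0.33).

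**Figure D3:**
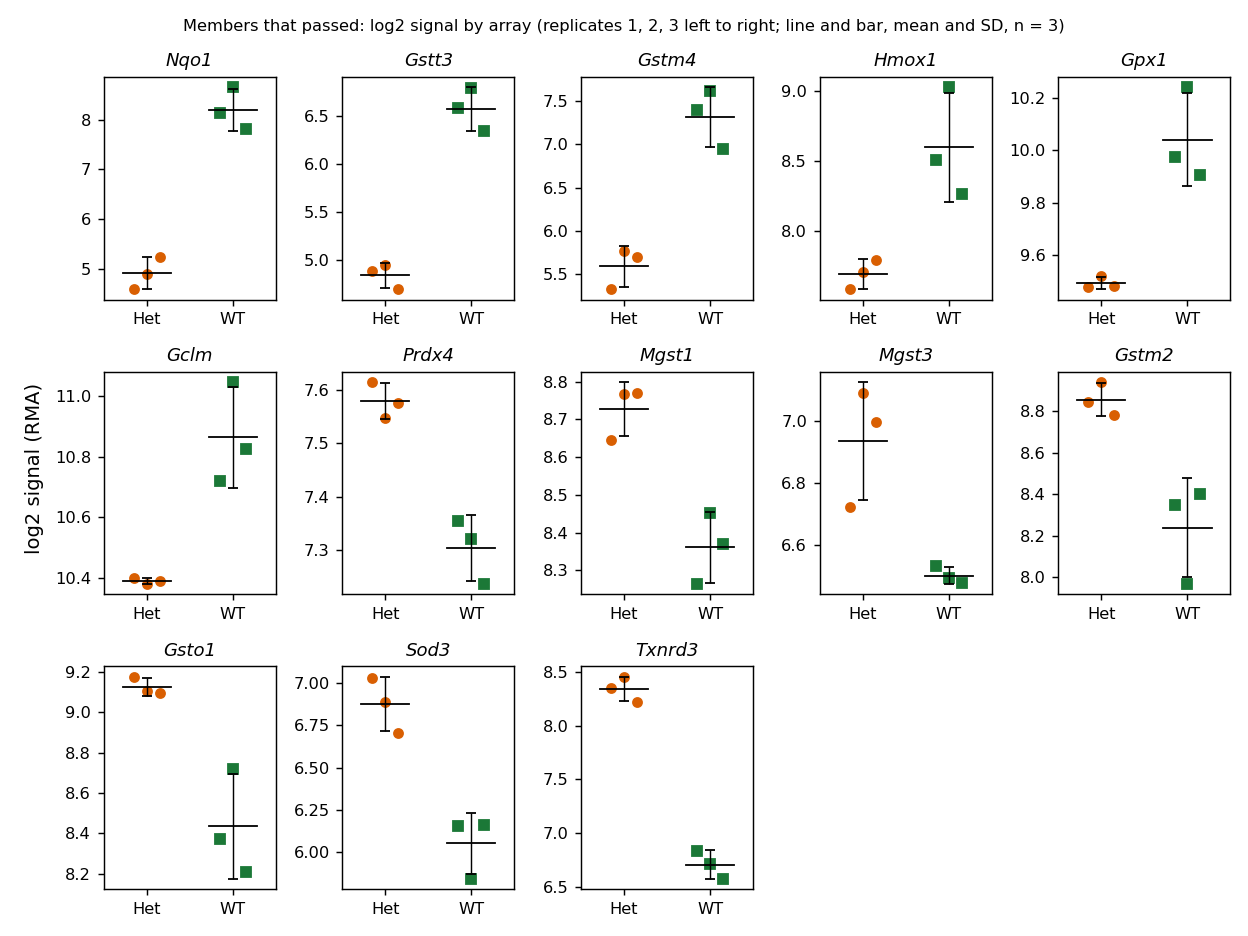
Log2 signal by array for the 13 members that passed, ordered by difference from Nqo1 to Txnrd3, with heterozygous arrays as circles on the left and wild-type arrays as squares on the right, replicates 1 to 3 from left to right, and the mean and SD of 3 arrays. In each panel the arrays of the lines do not overlap; each panel has its own scale.

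Cytosolic glutathione transferases couple glutathione to electrophiles. Of 18 measured, Gsto1 and Gstm2 were higher, Gstt3 and Gstm4 lower and 14 did not pass. Several lie in clusters of closely related genes. The sources used here do not give the bases their probes cover, so signal shared between neighbours was not tested. The mu class cluster on chromosome 3 (107926334 to 108045179) holds 6 measured genes. Gstm4 at its end read 5.33, 5.76 and 5.69 in heterozygous and 7.39, 7.61 and 6.94 in wild-type arrays. All heterozygous arrays lay at least 1 log2 unit lower, with a difference of −1.72 (SE 0.18, limma adjusted p 0.000517), or 30.3% of the wild-type signal. Gstm2 read 8.85, 8.94 and 8.78 in heterozygous and 8.35, 7.97 and 8.40 in wild-type arrays. Gstm2 thus went the other way without overlap, by 0.62 (SE 0.12, limma adjusted p 0.0133), though its call was lost without heterozygous replicate 1 or 2 (0.0531 and 0.0624, within 0.00506 to 0.0624 over all alternatives). Gstm1, which lies between them, differed by 0.28 (limma adjusted p 0.105), and Gstm3, Gstm6 and Gstm7 by −0.23 to 0.09. The mean of Gstm3 was below the 40th percentile in both lines, and that of Gstm6 in the heterozygous line. Gstm7 passed only without wild-type replicate 2 (−0.27, adjusted p 0.0391, within 0.0391 to 0.547 over all alternatives).

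The theta class cluster on chromosome 10 (75774117 to 75837419) holds 4 measured genes. Gstt3 at its edge read 4.88, 4.94 and 4.69 in heterozygous and 6.59, 6.79 and 6.34 in wild-type arrays. The heterozygous arrays were again far below, with a difference of −1.74 (SE 0.13, limma adjusted p 5.97e-05). Its heterozygous mean of 4.84 was also below the 40th percentile. The neighbour Gstt1 read 6.35, 6.41 and 6.32 in heterozygous and 6.38, 6.35 and 6.46 in wild-type arrays, a difference of −0.04 (95% confidence interval −0.20 to 0.13). Gstt4 differed by 0.05 and Gstt2 by −0.30, both below the 40th percentile in both lines.

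**Figure D4:**
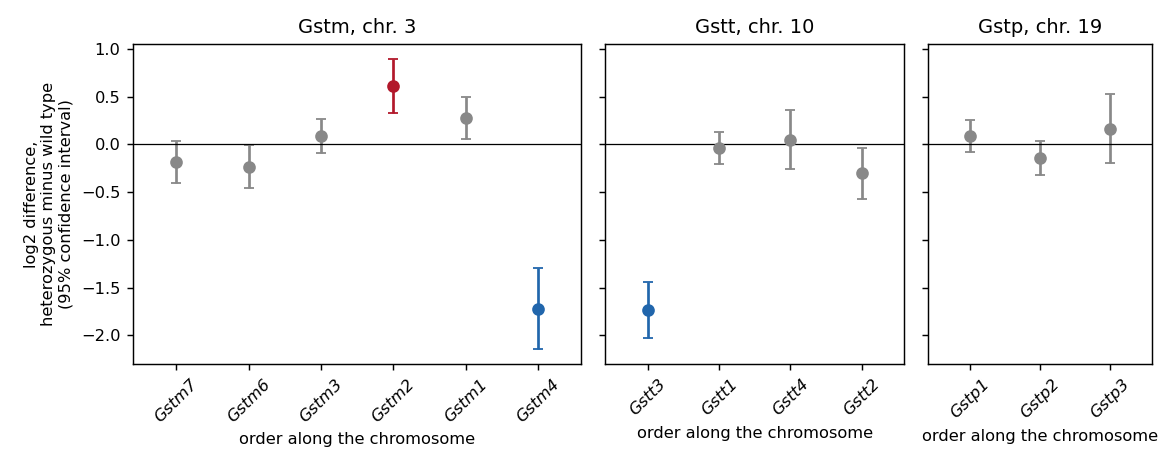
Log2 difference, heterozygous minus wild type, of the mu (Gstm), theta (Gstt) and pi (Gstp) class transferase genes in their order along the chromosome, with 95% confidence intervals. Gstm4 (−1.72) and Gstt3 (−1.74) lie at the ends of their clusters and passed as lower (blue), Gstm2 (0.62) passed as higher (red), and the pi class genes did not pass (grey).

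Gsto1, an omega class enzyme that reduces dehydroascorbate and mixed disulfides (Entrez 14873, chromosome 19, 47854973 to 47864790), read 9.18, 9.11 and 9.10 in heterozygous and 8.37, 8.72 and 8.21 in wild-type arrays. The lines did not overlap, with a rise of 0.69 (SE 0.13, limma adjusted p 0.00909), a 1.62-fold higher signal. Its neighbour Gsto2 differed by 0.07 (95% confidence interval −0.17 to 0.30). The pi class gene Gstp1, a major detoxifying transferase, read 11.81, 11.92 and 11.90 in heterozygous and 11.76, 11.78 and 11.83 in wild-type arrays, a difference of 0.09 (−0.08 to 0.25). Gstp2 and Gstp3 differed by −0.14 and 0.17. The alpha class genes Gsta3 and Gsta4 differed by 0.01 and 0.30. The mean of Gsta3 was below the 40th percentile in both lines, and that of Gsta4 in wild type. Gstk1, an enzyme of mitochondria and peroxisomes encoded on chromosome 6, differed by −0.34 at levels below the 40th percentile (limma adjusted p 0.0627, and 0.044 without wild-type replicate 2, within 0.044 to 0.21 over all alternatives).

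Microsomal glutathione transferases are membrane enzymes of a separate family. Mgst1, which lies on chromosome 6 (Entrez 56615, 138140527 to 138156755), read 8.65, 8.77 and 8.77 in heterozygous and 8.26, 8.45 and 8.37 in wild-type arrays, without overlap. The rise of 0.37 (SE 0.08, limma adjusted p 0.0217) compares with the median of 0.24 for bright genes of that chromosome. Mgst3 (Entrez 66447, chromosome 1, 167371966 to 167393841) read 6.72, 7.09 and 6.996 in heterozygous and 6.53, 6.49 and 6.48 in wild-type arrays, also without overlap, and rose by 0.43 (SE 0.10, limma adjusted p 0.028). Both lost their call without heterozygous replicate 2 or 3 or wild-type replicate 1 or 3, at adjusted p of 0.0929, 0.0973, 0.0704 and 0.0533 for Mgst1 and 0.106, 0.112, 0.0752 and 0.0794 for Mgst3, and with every probe set tested (0.0543 and 0.0677), within 0.0077 to 0.0973 and 0.0111 to 0.112 over all alternatives. Mgst2 differed by −0.07 and was below the 40th percentile in both lines.

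Other genes of the same pathways were counted from pathway lists, to be read against the 13.4% of all genes, and 18.7% of genes at or above the 40th percentile, that passed. Of 13 genes that regulate NRF2 or compete with it, 1 passed: Bach2, which encodes a repressor that binds the same kind of element, rose by 0.44 (SE 0.08, limma adjusted p 0.00657). Nfe2l2, the gene of NRF2, read 11.66, 11.69 and 11.65 in heterozygous and 11.63, 11.53 and 11.76 in wild-type arrays. The lines overlapped for Nfe2l2, with a difference of 0.03, and for Keap1, which encodes its inhibitor, with a difference of 0.09. Neither passed, and both are named outside the rule as the core of the pathway. Bach1, of the same list and likewise named outside the rule, differed by 0.37 without overlap. It did not pass (limma adjusted p 0.0647), but did without wild-type replicate 2 (0.25, adjusted p 0.0484). Among 21 other genes of glutathione metabolism 2 rose and 2 fell, a share (19.05%) near that of genes so bright. Ggt7, a gene of the gamma-glutamyltransferase family, rose by 1.38 (SE 0.08, limma adjusted p 1.26e-05) and Chac2, a gene of a glutathione-degrading cyclotransferase, by 0.73, while Oplah, whose product opens 5-oxoproline to glutamate, fell by 0.96 and Glo1, the glyoxalase gene, by 0.44. Of 20 thioredoxin-related and repair genes 4 rose and 2 fell. Those with the largest differences were the methionine sulfoxide reductase genes Msrb3 (0.87) and Msrb2 (0.46), the nucleoredoxin gene Nxn (0.81) and Txndc12 (−0.60), a thioredoxin-like gene of the endoplasmic reticulum.

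Of 9 genes that supply NADPH, the electron donor for both reductase systems, 2 rose and 2 fell. The mitochondrial transhydrogenase gene Nnt rose by 0.28 and Mthfd2, on chromosome 6, by 0.29, while the transaldolase gene Taldo1 fell by 0.66 and the malic enzyme gene Me1 by 0.38. Among 14 further NRF2 target and detoxification genes 3 rose and 2 fell. Ugdh, which makes the UDP-glucuronate used for conjugation, fell by 1.21 (SE 0.08, limma adjusted p 4.12e-05), whereas the carbonyl reductase gene Cbr1 rose by 0.80 and the aldo-keto reductase gene Akr1b10, on chromosome 6, by 0.68. Cbr3, a further carbonyl reductase gene, passed with a difference of 0.62, but its means of 4.80 in heterozygous and 4.18 in wild-type arrays both lay below the 40th percentile, near array background. The other fall was that of Nqo2, a relative of Nqo1 (−0.49), named to complete the count. Of 16 selenoprotein and selenocysteine genes Sephs1 (0.36) and Sephs2 (0.33) rose and Sepsecs (−0.32) fell, again a share (18.8%) near that of genes at or above the 40th percentile.

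Genes of enzymes that make superoxide or hydrogen peroxide, or of their subunits, numbered 3 higher and 1 lower of 11. The NADPH oxidase gene Nox3 read 6.81, 6.94 and 6.81 in heterozygous and 4.99, 5.35 and 5.05 in wild-type arrays, a difference of 1.72 (SE 0.11, limma adjusted p 2.44e-05), with the wild-type mean below the 40th percentile. Nox4, a further NADPH oxidase gene, rose by 1.20 and Duox1 by 0.80. Cyba, which encodes the p22phox subunit that several of these oxidases need, read 8.99, 9.04 and 9.004 in heterozygous and 10.29, 10.03 and 10.17 in wild-type arrays and fell by 1.15 (SE 0.08, limma adjusted p 6.42e-05). The 3 oxidase genes and the subunit gene passed in opposite directions. Xdh, of the same list and named outside the rule, differed by 1.32 without overlap but did not pass (limma adjusted p 0.102). Wild-type replicate 2 lay 1.85 above the average of the other wild-type arrays for Xdh. Without that array the difference was 1.94 (adjusted p 5.17e-06).

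**Figure D5:**
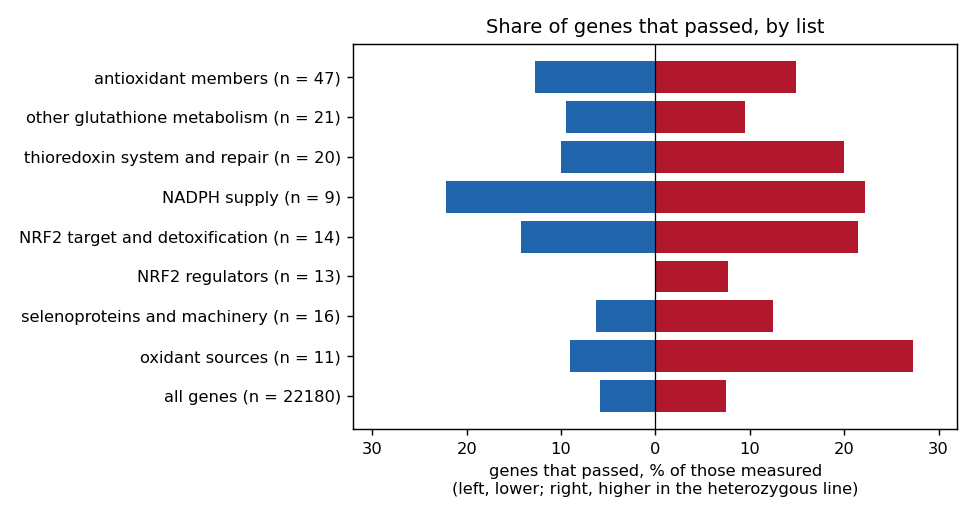
Share of measured genes that passed in each list, as percent, with genes lower in the heterozygous line drawn to the left in blue and higher ones to the right in red. The 47 antioxidant members had 6 lower and 7 higher, and the bottom bar gives all 22180 genes, of which 5.92% were lower and 7.46% higher.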

How the data were processed

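The deposited table holds log2 values made by the authors with RMA, per the submitters' processing notes, which also name Partek. The sources used here do not give versions, settings or any test by the authors. RMA subtracts background, makes the distributions of the arrays alike and summarises each probe set. Array medians lay between 5.72 and 5.78, and no further scaling was applied. Arrays give no counts, so the number of arrays limits the precision.

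Of 41345 probe sets, 23521 carried 1 gene symbol, 1814 several and 16010 none. The brightest probe set over 6 arrays was used per gene. Positions came from RefSeq, build GRCm38.p6. The comparison used limma 3.58.1 under R 4.3.3 (lmFit, eBayes, 2-sided, 7.87 total degrees of freedom), with Benjamini-Hochberg adjustment over all 22180 genes, and the code was tested on simulated data. Means and SDs are over 3 arrays. No replicate block was used, since the labels do not say what a shared replicate number stands for. Same-numbered arrays did not deviate together either (correlations of 0.0074, 0.016 and −0.0039).

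The members and lists were chosen with earlier results of these data known. All members were named, and of each other list up to 4 passing genes by size of difference, with exceptions stated. Alternatives were leaving out dim genes, quantile normalization or median centring, the mean of probe sets, every probe set tested, eBayes with trend or robust, array weights, a replicate block, other thresholds and each array left out. A planned description of selenocysteine in the proteins was not run.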

Additional observations from a re-analysis of the deposited data

How the results depend on the processing

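Of the 13 members that passed, 7 kept their call in all 15 alternatives for single genes, and 7 of the other 34 passed in at least 1. The mean of probe sets, 1 of these alternatives, could not change a member's difference, since each member had 1 probe set. No member that passed in any setting changed sign (0 cases). With each array left out in turn, 7 to 19 members passed (3 to 9 higher, 4 to 10 lower) and 1768 to 4222 of all genes. The lowest member count came without heterozygous replicate 2 and the highest without wild-type replicate 2. Members higher numbered 3 without heterozygous replicate 2 and 4 without heterozygous replicate 3, wild-type replicate 1 or wild-type replicate 3. All genes that passed numbered 1817, 1780 and 1768 without heterozygous replicates 1, 2 and 3. An adjusted p below 0.01 left 7 members (3 of them higher) and 1588 of all genes, a 2-fold threshold left 4 members (1 higher, 3 lower) and 782 genes, and testing every probe set left 4 members higher. With the replicate block 13 members passed (6 higher, 7 lower): Prdx4 lost its call (adjusted p 0.0962, within 0.0238 to 0.154 over all alternatives) and Srxn1 gained one (0.0428, within 0.0104 to 0.157). Same-numbered arrays share only a number. The median difference over the members stayed between −0.05 and −0.00754 in all alternatives. Signals near the array background limit the sizes given for Nqo1 and Gstt3.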
